A study of Homo sapiens with 12 samples.

Results

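The hypoxia-inducible factor (HIF) subunits measured here were the 3 alpha subunit genes EPAS1, HIF1A and HIF3A and the 2 beta subunit genes ARNT and ARNT2. They were taken by name from a table of RNA-seq counts for 38021 gene names, of which 26938 had a count in at least 1 library. All 5 genes were in the table. Of these, 4 passed the filter on low counts that left 16838 genes for testing, and HIF3A did not. The question was how the transcript levels of these subunits, and the ratios between them, differed with depletion of BMAL1 and with VHL.

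An active HIF is a heterodimer of an alpha and a beta subunit, both of the basic helix-loop-helix PAS (bHLH-PAS) family. Alpha subunits are hydroxylated by oxygen-dependent prolyl hydroxylases, recognised by the VHL ubiquitin ligase and degraded, whereas beta subunits are not controlled by oxygen in this way. In clear cell renal cell carcinoma (ccRCC) VHL is commonly lost and alpha subunits accumulate, and HIF2α, the product of EPAS1, is the alpha subunit best known for driving growth of these tumors. BMAL1, the circadian clock protein that pairs with CLOCK, is a bHLH-PAS relative of ARNT. This control acts largely on protein, and the counts reported here measure transcript only.

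RNA was sequenced from 786-O cells, a ccRCC line without functional VHL, and from WT8 cells, a derivative of 786-O in which wildtype VHL was reintroduced. Each line was infected with a lentiviral PLKO.1 vector that carried either a scrambled shRNA (shControl) or an shRNA against BMAL1 (shBMAL1), and was selected in puromycin. There were thus 4 groups of 3 libraries: 786-O shControl, 786-O shBMAL1, WT8 shControl and WT8 shBMAL1, with the 786-O groups named without the hyphen in the plots. The labels call the 3 libraries of a group biological replicates. All 4 groups share the vector, the selection, the growth medium with serum and the origin in 786-O. The study's methods list more than 1 shBMAL1 hairpin, and the labels do not say which was used. Whether WT8 is a single clone is not stated, and a difference between the lines may hold more than the reintroduced VHL. 786-O is known as a line that makes no functional HIF1α protein, so HIF1A counts are not a measure of that protein.

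Totals ran from 33182025 to 36477509 counts per library. BMAL1, listed under its older symbol ARNTL, had 464, 378 and 423 counts in 786-O shControl, 142, 128 and 141 in 786-O shBMAL1, 332, 355 and 309 in WT8 shControl and 56, 72 and 58 in WT8 shBMAL1. It was thus 3.08-fold lower with shBMAL1 in 786-O and 5.57-fold lower in WT8, and VHL was 52.2-fold higher in WT8 than in 786-O with shControl and 33.4-fold higher with shBMAL1. Within WT8, VHL was itself lower with shBMAL1, at 646.9 ± 15.0 CPM (library-scaled counts) against 980.7 ± 56.5 CPM with shControl (SD, n = 3, log2 -0.60, SE 0.05, edgeR adjusted p = 6.78e-13), and the part of this difference in the results on WT8 was not tested. Of 10 renal epithelial and carcinoma markers, all 10 had more than 3 counts in some library of both 786-O groups, and MME alone had at most 3 counts in every WT8 library. Of 6 leukocyte markers, PTPRC, CD3E and LYZ were among 4 with at most 3 counts in every library, whereas CD68, a lysosomal protein that is abundant in macrophages, had means of 41.9, 33.4, 28.9 and 19.1 CPM in 786-O shControl, 786-O shBMAL1, WT8 shControl and WT8 shBMAL1 and CD14 had 0.125 to 0.436 CPM. The summed levels of the whole lists were 17.5 to 43.1 CPM for the leukocyte markers, nearly all of it CD68, and 0.664 to 2.31 CPM for 6 endothelial and 8.21 to 15.1 CPM for 6 fibroblast markers. A list of 20 cell cycle genes summed to between 902 and 938 CPM in WT8 shControl and to between 4220 and 4657 CPM in the other 3 groups. The part of cell cycle state in the results on WT8 shControl was not tested.

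On GRCh37 EPAS1 lies at chr2:46520806-46613836 on the plus strand, HIF1A at chr14:62162231-62214977 on the plus strand, HIF3A at chr19:46800299-46846690 on the plus strand, ARNT at chr1:150782189-150849184 on the minus strand and ARNT2 at chr15:80696692-80890274 on the plus strand. All 5 are protein-coding genes, and the counts cover whole genes without a division into exons. The start regions of the 3 subunit genes with the highest levels are shown because BMAL1 with CLOCK is known to bind the E-box CACGTG, and HIF dimers the core ACGTG or GCGTG. The sequences are the 250 bases before a RefSeq start site on GRCh38.p14, read 5′ to 3′ on the gene's strand, with matches to these motifs in capitals. They lie at chr2:46297157-46297406 for EPAS1 (plus strand), chr14:61695263-61695512 for HIF1A (plus strand, the first of its start sites in the table) and chr1:150876600-150876849 for ARNT (minus strand).
EPAS1: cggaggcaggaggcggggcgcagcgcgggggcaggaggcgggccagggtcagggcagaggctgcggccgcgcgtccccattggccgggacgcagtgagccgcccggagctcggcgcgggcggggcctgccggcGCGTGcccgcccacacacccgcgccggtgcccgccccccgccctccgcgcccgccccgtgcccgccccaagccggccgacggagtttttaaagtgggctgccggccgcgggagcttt
HIF1A: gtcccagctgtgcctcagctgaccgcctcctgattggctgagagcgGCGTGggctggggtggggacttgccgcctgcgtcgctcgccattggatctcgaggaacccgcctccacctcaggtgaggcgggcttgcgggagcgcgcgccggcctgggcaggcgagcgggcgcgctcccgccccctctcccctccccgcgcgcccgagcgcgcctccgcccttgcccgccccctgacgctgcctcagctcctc
ARNT: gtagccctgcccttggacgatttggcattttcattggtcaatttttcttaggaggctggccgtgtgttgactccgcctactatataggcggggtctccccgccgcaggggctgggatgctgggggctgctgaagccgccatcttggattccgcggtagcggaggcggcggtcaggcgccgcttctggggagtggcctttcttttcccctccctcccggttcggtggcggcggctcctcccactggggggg

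The search covered both strands of 300-base windows, which add 50 bases after the start, and 4 of the 5 subunit genes had 7 windows in all. ACGTG also matches inside CACGTG. No window of EPAS1, HIF1A, HIF3A or ARNT held CACGTG or ACGTG, which occurred in 7.26% and 21.4% of 35116 windows of all genes. GCGTG occurred in 36.5% of all windows. It was found 1 time in EPAS1, at -117 from the start site, 1 time in HIF1A, at -204, and 3 times in a HIF3A window, and not in ARNT. These are matches of letters in a short window and say nothing about binding there or elsewhere. ARNT2 had no window in the table.

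EPAS1 was the most abundant subunit transcript in every library. Its counts were 6497, 6895 and 6675 in 786-O shControl, 6288, 6081 and 6627 in 786-O shBMAL1, 9174, 8926 and 9913 in WT8 shControl and 3480, 3401 and 3322 in WT8 shBMAL1. The WT8 groups held both its highest and its lowest libraries, and the 2 groups of 786-O overlapped in between. Scaled to library size by TMM (trimmed mean of M values), the means were 192.2 ± 4.32, 182.0 ± 7.78, 259.3 ± 10.1 and 90.8 ± 1.80 CPM in the same order (SD, n = 3 each). In bulk cultures a lower level per cell and fewer expressing cells cannot be told apart.

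In WT8, EPAS1 fell 2.86-fold with shBMAL1 (log2 -1.51, SE 0.05, edgeR quasi-likelihood test, Benjamini-Hochberg adjusted p = 9.07e-26). In 786-O the difference was log2 -0.08 with a 95% interval from -0.17 to 0.01 (SE 0.04, adjusted p = 0.159), and it was not called. It was called without 786-O shBMAL1 replicate 3 (log2 -0.12) and under upper-quartile scaling of the libraries (log2 -0.092). WT8 exceeded 786-O 1.35-fold with shControl (log2 0.43, SE 0.04, adjusted p = 6.73e-11), and with shBMAL1 it was 2.00-fold lower than 786-O (log2 -1.003, SE 0.05, adjusted p = 1.50e-20). The difference between the lines thus had opposite signs under the 2 shRNAs. The interaction term, the shBMAL1 effect in WT8 less the shBMAL1 effect in 786-O on the log2 scale, was -1.44 (SE 0.06, adjusted p = 2.05e-20).

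HIF1A encodes HIF1α, the alpha subunit best known for inducing glycolytic genes. It had 1962, 1832 and 1862 counts in 786-O shControl, 2517, 2482 and 2607 in 786-O shBMAL1, 1486, 1292 and 1411 in WT8 shControl and 677, 645 and 726 in WT8 shBMAL1. No group overlapped another, and 786-O shBMAL1 was the highest and WT8 shBMAL1 the lowest. The means were 54.2 ± 2.66, 72.9 ± 1.80, 38.7 ± 1.49 and 18.2 ± 1.11 CPM. HIF1A therefore moved in opposite directions with shBMAL1 in the 2 lines: it rose 1.34-fold in 786-O (log2 0.43, SE 0.06, adjusted p = 2.26e-07) and fell 2.13-fold in WT8 (log2 -1.09, SE 0.06, adjusted p = 5.22e-17). The interaction was -1.52 (SE 0.09, adjusted p = 5.17e-17). HIF1A was lower in WT8 than in 786-O with either shRNA, by 1.40-fold with shControl (log2 -0.48, SE 0.06, adjusted p = 6.59e-09) and by 4.00-fold with shBMAL1 (log2 -2.00, SE 0.06, adjusted p = 2.66e-25).

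The antisense gene HIF1A-AS1 overlaps the start of HIF1A on the other strand. Whether counting used strand is not stated, so reads from the shared stretch cannot be assigned. HIF1A-AS1 had 193, 227 and 226 counts in 786-O shControl, 274, 302 and 302 in 786-O shBMAL1, 573, 537 and 561 in WT8 shControl and 219, 183 and 195 in WT8 shBMAL1. It moved like HIF1A with shBMAL1 (log2 0.44 in 786-O and -1.54 in WT8, both called), but between the lines with shControl it was higher in WT8 (log2 1.32, called), where HIF1A was lower.

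HIF3A encodes an alpha subunit with isoforms known to restrain the other HIFs. It was listed at 0 in 9 of 12 libraries. The other libraries were 1 of 786-O shBMAL1 with 1 count, 1 of WT8 shControl with 3 counts and 1 of WT8 shBMAL1 with 1 count. A count of 0 allows up to 3 counts, which is 0.0822 to 0.0904 CPM over these libraries, and HIF3A had at most 3 counts in all 12 libraries, so no fold change was taken. This limit treats counts as independent, and it is too low if both mates of a read pair were counted.

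ARNT, also called HIF1β, is the usual partner of both HIF1α and HIF2α. Its counts were 1443, 1402 and 1356 in 786-O shControl, 945, 1031 and 1059 in 786-O shBMAL1, 1311, 1242 and 1344 in WT8 shControl and 1345, 1208 and 1208 in WT8 shBMAL1. The 786-O shBMAL1 libraries were the lowest 3 of the 12, and the WT8 groups overlapped. The means were 40.2 ± 1.78, 29.1 ± 1.72, 36.1 ± 0.454 and 33.5 ± 1.98 CPM, the narrowest range of the 4 tested subunits. ARNT fell 1.38-fold with shBMAL1 in 786-O (log2 -0.47, SE 0.07, adjusted p = 4.20e-07). In WT8 it differed by log2 -0.11 with a 95% interval from -0.24 to 0.02 (adjusted p = 0.151), and was not called. It was called without WT8 shBMAL1 replicate 1 (log2 -0.16) and under upper-quartile scaling (log2 -0.18).

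Between the lines ARNT was 1.12-fold lower in WT8 with shControl (log2 -0.16, SE 0.07, adjusted p = 0.0300) and 1.15-fold higher with shBMAL1 (log2 0.20, SE 0.07, adjusted p = 0.00802). The first of these was not called without 786-O shControl replicate 1, where it was log2 -0.12, nor under upper-quartile scaling, where it was log2 -0.04. That scaling moved the median of all genes in this comparison by 0.11 on the log2 scale. ARNT was the subunit whose interaction was positive (0.36, SE 0.09, adjusted p = 0.00159).

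ARNT2 is a beta subunit close to ARNT, best known from neurons and kidney. Its counts were 657, 562 and 701 in 786-O shControl, 588, 647 and 695 in 786-O shBMAL1, 95, 80 and 65 in WT8 shControl and 32, 28 and 34 in WT8 shBMAL1. The 786-O groups overlapped, every WT8 library was far below them, and the WT8 groups were apart from each other. The means were 18.4 ± 2.05, 18.5 ± 1.54, 2.22 ± 0.416 and 0.836 ± 0.0816 CPM. ARNT2 was 8.26-fold lower in WT8 than in 786-O with shControl (log2 -3.05, SE 0.13, adjusted p = 1.06e-21) and 22.0-fold lower with shBMAL1 (log2 -4.46, SE 0.15, adjusted p = 1.37e-24). With shBMAL1 it fell 2.65-fold in WT8 (log2 -1.41, SE 0.19, adjusted p = 6.88e-08). In 786-O it differed by log2 0.01 with a 95% interval from -0.19 to 0.21 (SE 0.10, adjusted p = 0.966). The interaction was -1.41 (SE 0.22, adjusted p = 1.25e-06), and it rests on low counts in WT8.

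**Figure D1:**
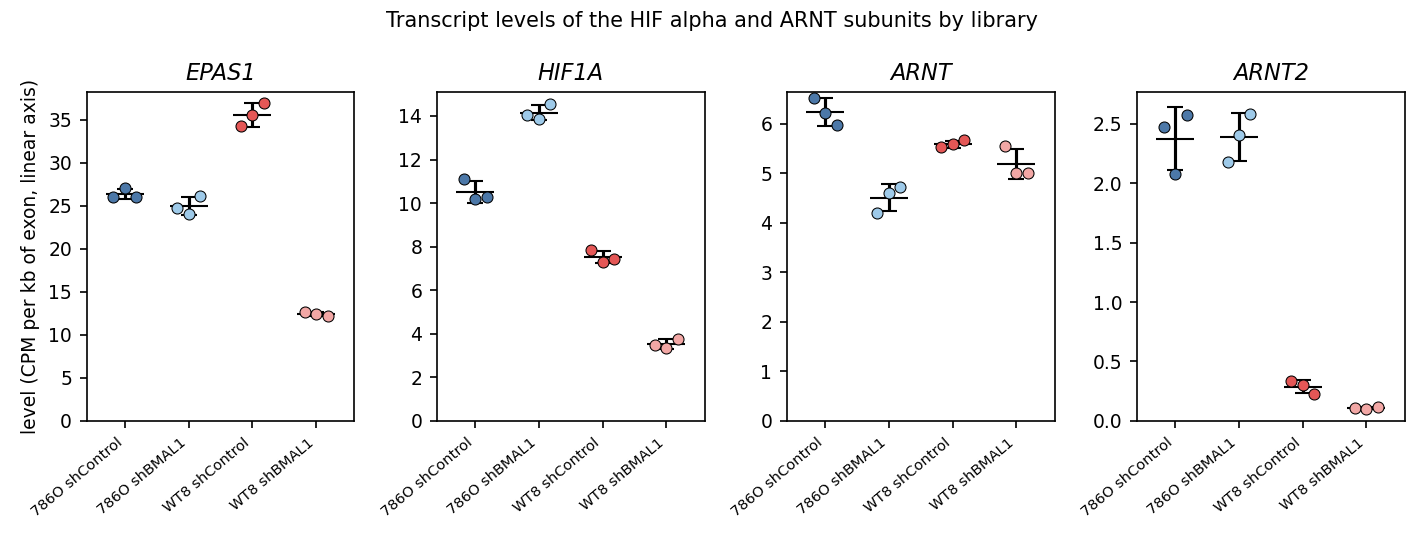
Level of each tested subunit transcript by library, in CPM per kb of merged exon on linear axes that start at 0 and differ between genes. Points are libraries, the horizontal bars are means and the whiskers are SD over 3 libraries. EPAS1 peaks in WT8 shControl and HIF1A in 786-O shBMAL1, ARNT stays between 4.21 and 6.53, and ARNT2 is low in both WT8 groups.

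Between genes, levels were compared per length, as CPM per kb of merged exon. EPAS1 had 26.4, 25.0, 35.6 and 12.5 in 786-O shControl, 786-O shBMAL1, WT8 shControl and WT8 shBMAL1, and HIF1A had 10.5, 14.1, 7.52 and 3.54. ARNT had 6.24, 4.51, 5.59 and 5.19 and ARNT2 had 2.38, 2.39, 0.287 and 0.108. In 3 groups the order of these levels was EPAS1, HIF1A, ARNT and ARNT2 from highest to lowest. In WT8 shBMAL1, HIF1A (3.35 to 3.77) lay below ARNT (5.01 to 5.54) in every library. Among 14527 genes with a length, EPAS1 stood above 92.1% in WT8 shControl and above 76.4% in WT8 shBMAL1, while ARNT2 stood above 40.1% in 786-O shControl and above 11.6% in WT8 shBMAL1.

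Large shares of all genes differed in these comparisons, and the subunits have to be read against that. With shBMAL1 in 786-O, 2 of the 4 tested subunits were called (adjusted p under 0.1), HIF1A higher and ARNT lower, where 48.9% of all genes tested were called, 24.5% higher and 24.4% lower. With shBMAL1 in WT8, 3 of 4 were called, all lower, where 69.8% of genes were called, 32.9% higher and 36.9% lower. For WT8 against 786-O with shControl 4 of 4 were called, EPAS1 higher and the others lower, where 79.5% of genes were called, 39.3% higher and 40.1% lower. With shBMAL1 4 of 4 were called, ARNT higher and the others lower, where 73.0% of genes were called, 35.9% higher and 37.1% lower. The interaction was called for 4 of 4, where 56.0% of genes were called. The groups did not overlap in CPM for 2, 3, 4 and 4 of the 4 subunits in the same comparisons, where this held for 50.9%, 67.6%, 77.5% and 71.0% of genes. With 4 genes, these counts do not set the subunits apart from other genes. In size, the fall of EPAS1 in WT8 was larger than 87.7% of all differences in that comparison. The difference of ARNT2 between the lines with shBMAL1 was larger than 95.3%, the highest such share, and rests on 28 to 34 counts in WT8 shBMAL1. The lowest shares were 2.81% for ARNT2 with shBMAL1 in 786-O and 14.5% for ARNT with shBMAL1 in WT8. These comparisons share groups, so their values are not independent of each other.

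**Figure D2:**
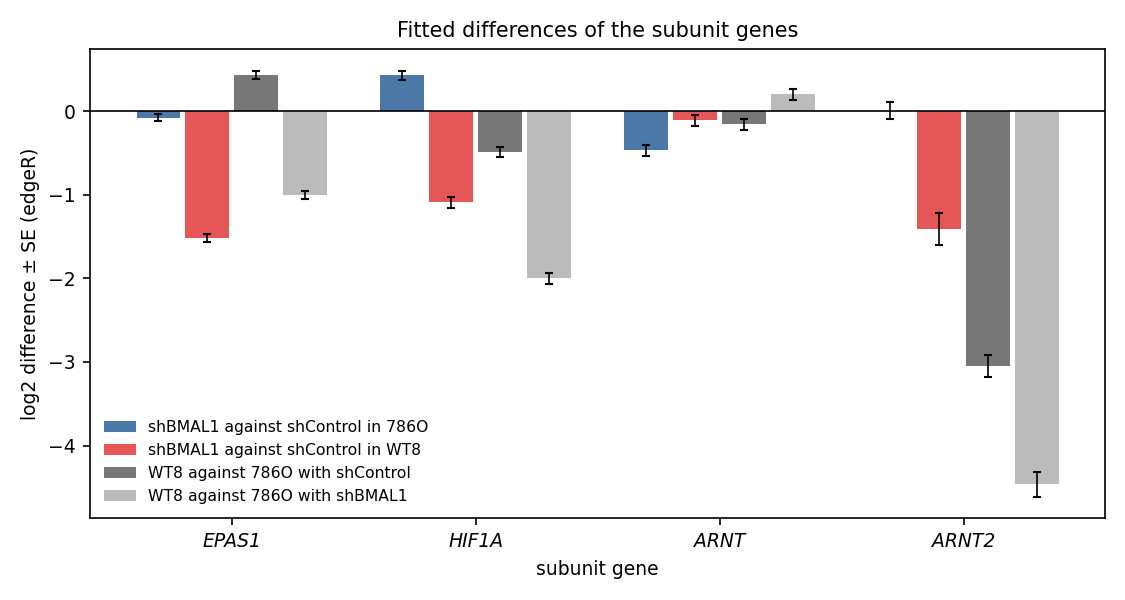
Fitted log2 differences of the 4 tested subunit genes in the 4 comparisons of groups, with bars from 0 and whiskers of 1 SE from the edgeR fit over 12 libraries. EPAS1, HIF1A and ARNT2 are lower with shBMAL1 in WT8 (-1.51, -1.09 and -1.41), while in 786-O ARNT is the subunit that was called lower (-0.47).

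Ratios between subunits do not depend on how libraries are scaled. They were taken per library from counts per kb. EPAS1 exceeded HIF1A 2.34-, 2.66- and 2.53-fold in 786-O shControl, 1.76-, 1.73- and 1.80-fold in 786-O shBMAL1, 4.36-, 4.88- and 4.96-fold in WT8 shControl and 3.63-, 3.73- and 3.23-fold in WT8 shBMAL1. The ratio was thus lower with shBMAL1 in both lines and higher in WT8 with both shRNAs, and no groups compared overlapped. EPAS1 made up 71.5%, 63.8%, 82.5% and 77.9% of the summed EPAS1 and HIF1A transcript in the 4 groups. Over both lines the ratio differed with shBMAL1 by log2 -0.47, and over both shRNAs it differed between the lines by log2 0.96 (exact stratified permutation test over 400 arrangements, two-sided, p = 0.005 for both, the smallest it can give, adjusted p = 0.0125 over 10 tests). Its change with shBMAL1 was -0.51 in 786-O and -0.42 in WT8, a difference of 0.08 with an SE of 0.10. The 2 genes behind it moved unlike in the lines. In 786-O HIF1A rose (log2 0.43) and EPAS1 was not called (log2 -0.08). In WT8 both fell, EPAS1 (log2 -1.51) more than HIF1A (log2 -1.09).

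The ratio of ARNT2 to ARNT was 0.379, 0.334 and 0.431 in 786-O shControl, 0.519, 0.523 and 0.547 in 786-O shBMAL1, 0.0604, 0.0537 and 0.0403 in WT8 shControl and 0.0198, 0.0193 and 0.0235 in WT8 shBMAL1. ARNT2 thus made up 27.6% and 34.6% of the summed beta subunit transcript in the 786-O groups and 4.89% and 2.04% in the WT8 groups. Over both shRNAs the log2 ratio was lower in WT8 by 3.79 (value -3.79, exact permutation p = 0.005, adjusted p = 0.0125). With shBMAL1 it was higher in 786-O (log2 0.48, SE 0.11) and lower in WT8 (log2 -1.29, SE 0.19), and over both lines there was no call (exact permutation p = 0.2, adjusted p = 0.286).

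Against ARNT, both alpha subunits moved in opposite directions with shBMAL1 in the 2 lines. The mean EPAS1 to ARNT ratio was 4.23 ± 0.213 in 786-O shControl and 5.55 ± 0.334 in 786-O shBMAL1, but 6.36 ± 0.167 in WT8 shControl and 2.40 ± 0.104 in WT8 shBMAL1 (SD, n = 3). The HIF1A to ARNT ratio was 1.69 ± 0.0440, 3.14 ± 0.169, 1.35 ± 0.0642 and 0.684 ± 0.0625 in the same order, so that HIF1A fell below ARNT in WT8 shBMAL1. The summed alpha to beta ratio (EPAS1 and HIF1A over ARNT and ARNT2) was 4.28 ± 0.186, 5.68 ± 0.347, 7.33 ± 0.186 and 3.02 ± 0.141. In 786-O shBMAL1 its rise went with lower ARNT and higher HIF1A, and in WT8 shBMAL1 its fall went with lower EPAS1 and HIF1A.

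For each of the 5 ratios, no library of a group overlapped the group it was compared with in any of the 4 comparisons. Of single genes tested, 50.9% and 67.6% did not overlap with shBMAL1 in 786-O and in WT8. Between the lines this held for 77.5% with shControl and 71.0% with shBMAL1. The share for ratios of other genes was not taken. The 5 ratios share 4 genes, so their results are not independent. A comparison of 3 libraries with 3 cannot go below an exact permutation p of 0.1, and all 20 were at that limit. Over both shRNAs, HIF1A to ARNT was lower in WT8 (log2 -1.26, exact permutation p = 0.005, adjusted p = 0.0125). The other 6 of the 10 tests were not called (exact permutation p from 0.1 to 0.76), and in each of these the 2 differences that were averaged had opposite signs.

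**Figure D3:**
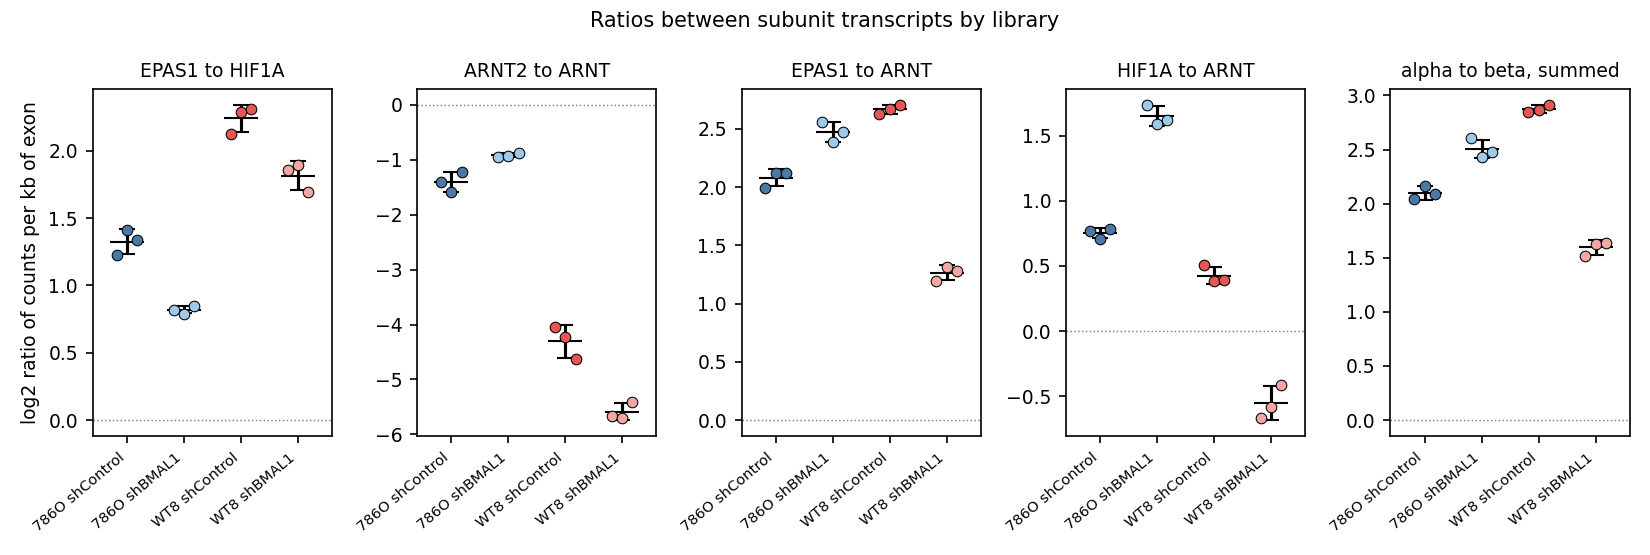
Log2 ratios of counts per kb between subunit transcripts by library, with the mean as a bar and SD as whiskers over 3 libraries and a dotted line at a ratio of 1. The axes differ between panels. Ratios of EPAS1 to HIF1A move the same way with shBMAL1 in both lines, and the other 4 ratios rise in 786-O and fall in WT8.

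The genes with the pattern most like each subunit were found by Pearson correlation of log2 CPM over the 12 libraries among 12947 genes, as a description of 4 groups and not a test. Closest to EPAS1 were NDRG1 (r = 0.995), a known hypoxia-inducible gene, ADGRG1 (r = 0.994), an adhesion G protein-coupled receptor, and ANXA4 (r = 0.991), an annexin. NDRG1 had 216.9, 174.4, 333.6 and 53.6 CPM in the 4 groups, and like EPAS1 it was highest in WT8 shControl and lowest in WT8 shBMAL1. Closest to HIF1A were ITIH5 (r = 0.996), NEDD9 (r = 0.995), a scaffold protein of focal adhesions, and SLC6A6 (r = 0.994), the taurine transporter. All 3 were highest in 786-O shBMAL1 and lowest in WT8 shBMAL1.

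Closest to ARNT were FYCO1 (r = 0.944), SRGAP2C (r = 0.937) and ABCD4 (r = 0.933), all with a lower r than the genes closest to the other subunits. SRGAP2C is a near-identical copy of SRGAP2, and its counts are uncertain for that reason. Closest to ARNT2 were DAB2 (r = 0.997), an endocytic adaptor, LPXN (r = 0.997) and FAM213A (r = 0.996), which had 5.31 and 5.82 CPM in the 786-O groups and was at or below 3 counts in WT8. Between subunits, r was 0.934 for HIF1A and ARNT2, 0.697 for EPAS1 and HIF1A and 0.487 for EPAS1 and ARNT2. With ARNT, r was 0.246 for EPAS1, -0.12 for HIF1A and -0.01 for ARNT2. The points fall into 4 groups and share their libraries, so r mostly reflects the order of 4 means.

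**Figure D4:**
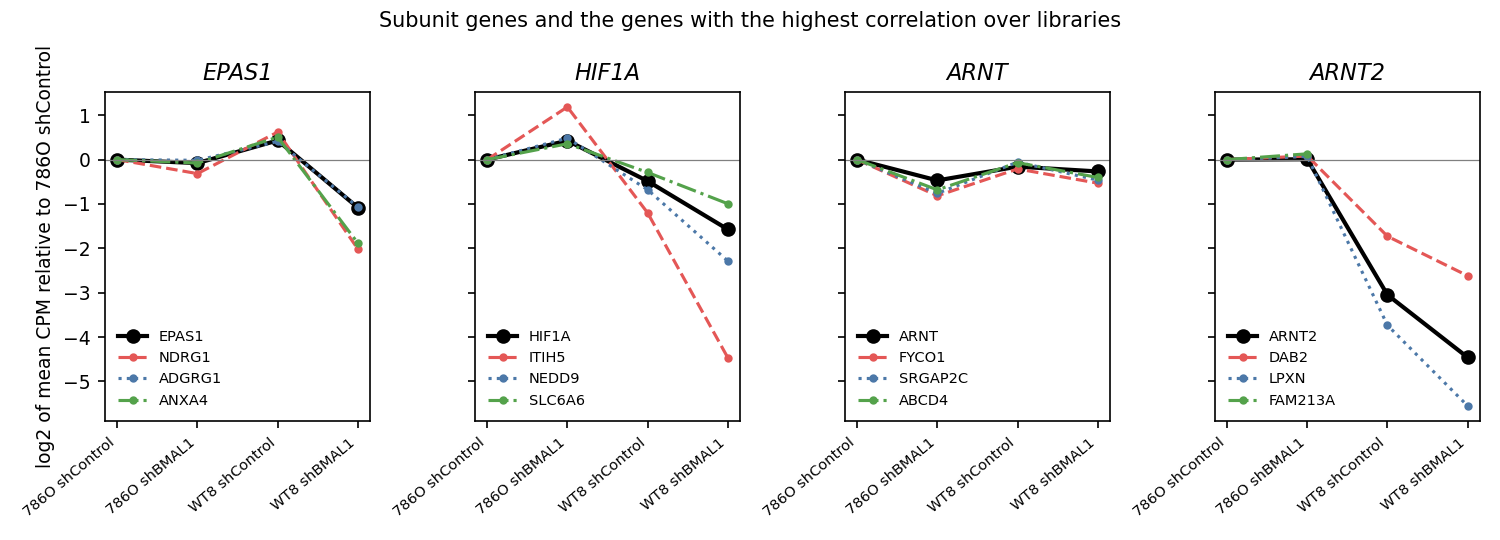
Mean CPM in each group relative to 786-O shControl, on a log2 axis, for each tested subunit (black) and the 3 genes with the highest correlation to it. Lines join the groups only to guide the eye, and FAM213A is drawn only in the 786-O groups because it was at or below 3 counts in WT8. The genes closest to EPAS1 are high in WT8 shControl and low in WT8 shBMAL1, as EPAS1 is. Its log2 difference is 0.43 for WT8 shControl against 786-O shControl and -1.51 for WT8 shBMAL1 against WT8 shControl.

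Other bHLH-PAS genes were also measured, 11 of 14 with enough counts. With shBMAL1, 5 were called higher and 2 lower in 786-O and 5 higher and 3 lower in WT8, where 24.5% and 24.4% of all genes tested were called higher and lower in 786-O and 32.9% and 36.9% in WT8. Of these, ARNTL fell as given above, and AHR, the dioxin receptor, which also pairs with ARNT, rose in 786-O (log2 0.72). In WT8 ARNTL2, the close paralog of BMAL1, rose (log2 0.62) and NPAS2, a paralog of CLOCK, fell (log2 -0.44). Between the lines with shControl, 3 were higher and 6 lower in WT8, where 39.3% of all genes tested were called higher and 40.1% lower. AHR was among the lower (log2 -1.92) and the AHR repressor AHRR among the higher (log2 2.06).

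Of 15 genes that control HIF stability or activity through oxygen, VHL or chaperones, 14 were tested. EGLN2 had at most 5 counts in every library, while its read-through gene RAB4B-EGLN2 took 2290 to 3843 counts. With shBMAL1 48.9% of all genes tested were called in 786-O and 69.8% in WT8. In 786-O, 7 of the 14 were called higher and 4 lower, and their median was log2 0.09 against 0.00 for all genes tested. In WT8, 6 were higher and 6 lower, with a median of -0.01 against -0.04. EGLN3, the prolyl hydroxylase that is itself induced by HIF, rose in 786-O (log2 0.43) and fell in WT8 (log2 -2.67). Its fall in WT8 rests on low levels, 4.11 ± 0.335 CPM with shControl and 0.641 ± 0.140 CPM with shBMAL1 (SD, n = 3). HSP90AA1, the chaperone HSP90α, rose in both lines (log2 0.47 and 1.00). FBXW7, a ubiquitin ligase subunit reported to act on HIF1α, fell in both (log2 -0.43 and -0.64). Between the lines with shControl, EGLN3 was lower in WT8 (log2 -3.49) and FBXW7 higher (log2 1.03). Of 5 coactivators and CITED proteins, which compete for them, 1 was called in 786-O, CITED2 (lower, log2 -0.11), and 3 in WT8, against the same shares of all genes. In WT8 CREBBP was among those called, higher (log2 0.52), and CITED2 lower (log2 -0.15).

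HIF target genes in 2 lists, named HIF2α-preferring and HIF1α-preferring, were set beside the subunits. Which alpha subunit acts on each gene was not tested, and a gene may be a target of both. Of 10 HIF2α-preferring targets, 9 fell and none rose with shBMAL1 in WT8, with a median of log2 -1.63 against -0.04 for all genes tested, of which 36.9% were called lower and 32.9% higher. ANGPTL4, an inhibitor of lipoprotein lipase, fell by 2.93 on the log2 scale and NDRG1 by 2.64, and EDN1, which encodes endothelin 1 and was low in WT8, was log2 -0.15 and not called. In 786-O, where EPAS1 was not called, 5 of these targets rose and 5 fell, with a median of -0.08 against 0.00 for all genes tested, of which 24.5% were called higher and 24.4% lower. The lipid droplet protein gene PLIN2 (log2 -0.55) was among those that fell, while ANGPTL4 (log2 1.07) and ADM (log2 0.57), which encodes adrenomedullin, were among those that rose. Between the lines with shControl, where EPAS1 was higher in WT8, 4 were higher and 6 lower, with EDN1 70.4-fold lower and ANGPTL4 10.8-fold higher in WT8. Of all genes tested, 39.3% were called higher and 40.1% lower in WT8 with shControl. This list was written with results of these data known, so its counts and medians are a description. A link between these targets and EPAS1 was not tested.

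Of 10 HIF1α-preferring targets, 3 rose and 5 fell with shBMAL1 in WT8 (median log2 -0.07), and 3 rose and 4 fell in 786-O (median -0.03), against the same shares of all genes, with CA9 listed at 0 in all 6 WT8 libraries. In WT8 the largest falls were those of PFKFB4 (log2 -1.85), a regulator of glycolysis, and SLC2A1 (log2 -1.47), the glucose transporter GLUT1, while PDK1 rose (log2 0.59). With shControl 8 were lower and 1 higher in WT8 than in 786-O, and SLC2A1 (log2 -1.64) and PDK1 (log2 -1.44) were among the lower. These lists were written from memory with results of these data known, and 79.5% of all genes were called in that comparison, so the counts are a description.

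**Figure D5:**
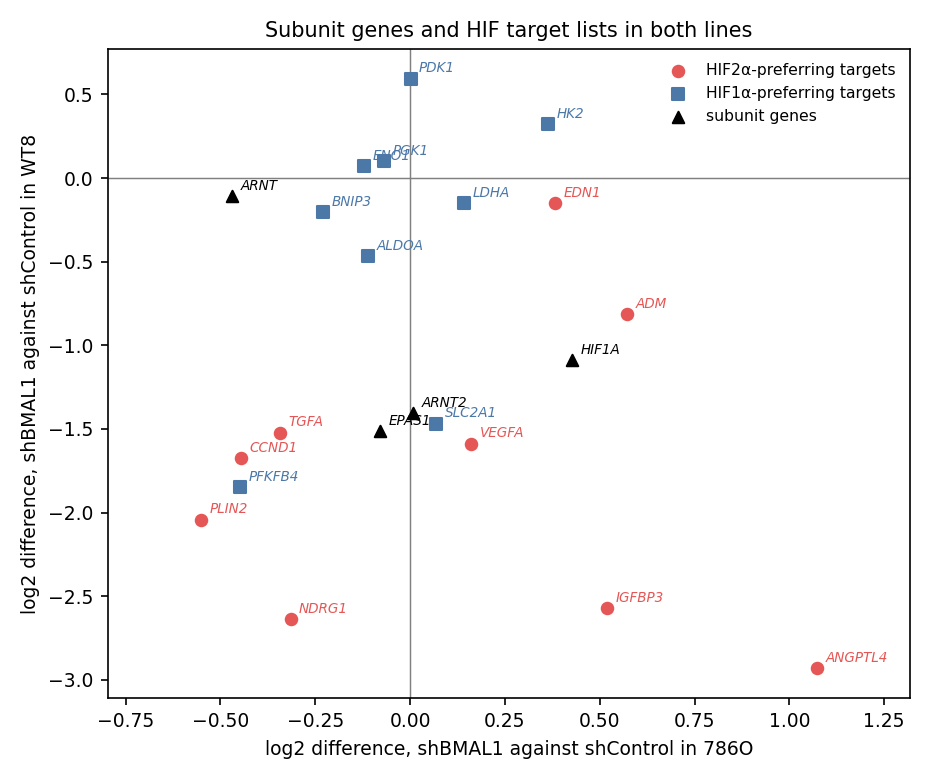
Log2 difference with shBMAL1 in 786-O (horizontal) and in WT8 (vertical) for the 4 tested subunit genes and for genes of the HIF2α- and HIF1α-preferring target lists, from the edgeR fit. CA9, at 0 in WT8, is not drawn, and 9 of the 10 HIF2α-preferring targets are drawn. All 9 lie below 0 in WT8 and on both sides of 0 in 786-O. EPAS1 lies at -1.51 in WT8 and at -0.08 in 786-O. The lists were written with results of these data known, and a link between them and EPAS1 was not tested.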

How the data were processed

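Stranded mRNA libraries were sequenced as read pairs. Per the study's methods, the authors used SeqMan NGen for alignment to GRCh37 and ArrayStar for the export of reads per gene; the submitters' processing notes name hg38, STAR and DESeq2 instead. The annotation, the use of strand and the treatment of reads with several alignments are not given in the sources used here. The deposited values are expected counts (estimated counts) per gene on a linear scale, not scaled between libraries: 0.028 stood in for 0 and 5.67% of the other values were not whole. The tests had been planned for plain counts. The stand-in was set to 0, the rest were rounded, and lines with the same name were summed. A count of 2 occurred more often than a count of 1 (14754 against 11117 times), so both mates of a read pair seem to count.

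Group means were modelled over all 12 libraries with edgeR 4.0.16 in R 4.3.3 (TMM, factors 0.948 to 1.04; filterByExpr; robust quasi-likelihood F test), with Benjamini-Hochberg adjustment over 16838 genes. Genes with an adjusted p under 0.1, the false discovery rate of the study, were called. The SE is the size of the log2 difference over the square root of F. The common biological coefficient of variation was 5.70%, and limits from counts cover counting error only. The fit was tested on simulated data. Exon lengths and positions are from GENCODE version 44 on GRCh37, where 22506 names matched directly, 1160 through an older name and 14355 not at all. Ratios were tested by exact permutation, two-sided. Promoters are from RefSeq.

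Genes named are the 5 subunits, ARNTL and VHL, the 3 genes (mean of at least 50 counts) most correlated with each tested subunit, and from each list the 2 largest rises and falls among called genes with a mean of at least 50 counts. HIF1A-AS1, EGLN2, RAB4B-EGLN2, EDN1 in WT8, CA9, single markers and neighbouring genes were added after their values were seen. Of the genes the lists and this rule took, 2 are not reported here and count only in totals. The members and lists were chosen with earlier results of these data known. Alternatives were DESeq2 1.42.0, its size factors, upper-quartile scaling, library totals without TMM, no filter and fits of only the groups compared. Others were a replicate block, a minimum fold of 1.5, other lengths, and leaving out each library.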

Additional observations from a re-analysis of the deposited data

Results flagged for a closer look

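The change with shBMAL1 differed between the lines by the interaction term of the edgeR fit for all 4 tested subunits. WT8 minus 786-O was -1.44 for EPAS1, -1.52 for HIF1A, 0.36 for ARNT and -1.41 for ARNT2, where 56.0% of all genes tested had a called interaction. HIF1A had opposite called directions in the lines, EPAS1 and ARNT2 were called in WT8, and ARNT in 786-O. The depletion of BMAL1 itself was deeper in WT8, with an ARNTL interaction of -0.86 (SE 0.19, edgeR adjusted p = 0.000368). The part of this difference in the interactions of the subunits was not tested.

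For 4 ratios every shBMAL1 library lay above every shControl library in 786-O and below every shControl library in WT8. The log2 change in WT8 minus that in 786-O was -1.77 for ARNT2 to ARNT (SE 0.22), -1.79 for EPAS1 to ARNT (SE 0.08), -1.88 for HIF1A to ARNT (SE 0.10) and -1.68 for the summed alpha to beta ratio (SE 0.08). These differences of ratios were not tested. No cause of these differences was tested.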

How the results depend on the processing

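Tested against a minimum fold of 1.5 in place of 0, calls over all genes dropped to 990 (shBMAL1 in 786-O), 4314 (shBMAL1 in WT8), 6992 (lines with shControl), 5024 (lines with shBMAL1) and 3133 (interaction), and HIF1A 0.43 and ARNT -0.47 in 786-O, EPAS1 0.43, HIF1A -0.48 and ARNT -0.16 between the lines with shControl, ARNT 0.20 between the lines with shBMAL1 and its interaction of 0.36 were no longer called, since that test asks for a larger change. Upper-quartile scaling called EPAS1 in 786-O (-0.092) and ARNT in WT8 (-0.18), lost ARNT between the lines with shControl (-0.045) and turned the sign of ARNT2 in 786-O (-0.0052) and, between the lines with shControl, of SRGAP2C (0.057) and ABCD4 (0.045), none of them called; the cause was not tested. Leaving out each library gave EPAS1 in 786-O from -0.12 to -0.051, ARNT2 in 786-O from -0.080 to 0.070, ARNT in WT8 from -0.16 to -0.081, ARNT between the lines with shControl from -0.19 to -0.12, and turned signs that were not called for VHL (from -0.028 to 0.12) and ADGRG1 (from -0.049 to 0.0262) in 786-O. DESeq2, its size factors, no filter, fits of only the groups compared and the length of the longest transcript changed no call of a subunit or ratio. Same-numbered libraries did not deviate together (r from -0.04 to 0.04), and the main fit did not pair them. The labels do not say whether same-numbered cultures were handled together. With a replicate block 8054 genes were called for shBMAL1 in 786-O and no subunit's call changed. Library totals without TMM were applied only outside the tests of subunits and ratios, where 6 results moved and 10 stayed the same. Depth limits HIF3A in all groups and ARNT2 in WT8.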

Other observations

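The genes next to each subunit gene, 5 tested genes on each side, were read after the subunits' values were known. With shBMAL1 in WT8, EPAS1 (-1.51) differed more than all 10 of its neighbours, which ran from -0.74 to 0.91. The same held for its interaction (-1.44 against -0.60 to 1.07). With shBMAL1 in WT8, 6 of these neighbours had a called rise and 2 a called fall. Calls were common in that comparison, at 69.8% of the whole fit, with rises at 32.9% and falls at 36.9%. HIF1A (-1.09) differed more than 7 of its 10 neighbours there. PRKCH (-1.84), HIF1A-AS1 (-1.54), which overlaps HIF1A, and SYT16 (-1.22) fell by more. Among its 10 neighbours 2 had a called rise and 5 a called fall. ARNT2 with shControl was lower in WT8 by more than 7 of 10 neighbours differed between the lines (-3.05), and BCL2A1 (-4.72) and CEMIP (-4.41) nearby were lower still, while IL16 was listed at 0 in 786-O and was called higher in WT8. ARNT between the lines with shControl (-0.16) differed more than 1 of its 10 neighbours. These are values for neighbouring genes and were not tested against each other.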
